A study of Mus musculus with 4 samples.

Results

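Immediate early AP-1 and EGR transcription factors were examined by RNA sequencing in cortical microglia of embryonic day 16 mice. The genes were chosen by symbol: the FOS family members Fos, Fosb and Fosl2, the JUN family members Jun, Junb and Jund, the EGR genes Egr1, Egr2 and Egr3, and Atf3. Of these 10 genes, 9 had a row among the 21981 genes of the deposited tables, 8 had a count in every library, and the same 8 passed the filter on low counts. The choice was made with the difference between the genotypes already known, so the values of the 10 genes are given as a description and without p-values. The libraries were 2 labelled Bach1 cKO (cKO 2 and cKO 5), a conditional knockout whose driver is written Cx3, and 2 labelled Bach1 fl/fl (control 1 and control 6). All were untreated. The labels do not say whether a library came from 1 animal or a pool, how the microglia were isolated, or whether Cre was present in the controls. The series text speaks of triplicates, and 2 libraries per genotype were analysed here. The spread between libraries may be technical.

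Immediate early genes are transcribed within minutes of a stimulus, without new protein synthesis, when kinases such as ERK activate factors that are already present, among them SRF, ELK proteins and CREB. FOS and JUN proteins pair through leucine zippers to form AP-1, which binds a short palindromic DNA site. EGR proteins bind GC-rich sites through zinc fingers, and ATF3 pairs with JUN proteins and often acts as a repressor. In microglia and other macrophages these genes respond to growth factors, purines and inflammatory ligands. BACH1, a heme-binding repressor, pairs with small MAF proteins on sites whose core resembles the AP-1 site.

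Library totals ran from 17233115 to 19305078 reads, and 3 reads corresponded to 0.155 to 0.174 CPM (counts per gene scaled so that every library has the same sum). The targeted gene Bach1 came to 29.98 and 35.4 CPM in the cKO libraries 2 and 5, against 45.8 and 21.6 CPM in controls 1 and 6. The groups overlapped for Bach1, and since the deposited counts are per gene and do not separate the floxed exons, the deletion was not checked here. Microglial markers (15 genes, among them Csf1r, P2ry12 and C1qa) were all detected in every library, with summed levels of 9936 (cKO 2) and 38527 CPM (cKO 5), against 26874 (control 1) and 43394 CPM (control 6). The library cKO 2 had the lowest microglial and the highest neuronal marker levels, and the counts over the group are therefore also given without it. Control 1 came next in both. Endothelial marker sums were 2346 CPM (cKO 2) and 3027 CPM (control 1), against 314 CPM (cKO 5) and 566 CPM (control 6). Each genotype thus had 1 library richer in neuronal and endothelial markers, and leaving out cKO 2 alone keeps control 1 in the comparison.

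Promoter sequences are shown for 4 genes with lower values in both cKO libraries than in both controls, and for Atf3, which was low in 1 cKO library only. They come from RefSeq on GRCm38.p6, and windows of 8 of the 10 genes were searched. Egr1 and Egr3 were left out of the search, so nothing is said here about motifs in their promoters. Each window runs from 250 bases before to 50 bases after an annotated start, 5′ to 3′ on the gene's strand. Capitals mark the CArG box bound by SRF, the half-site TGACGT of the cyclic AMP response element bound by CREB and ATF factors, the AP-1 variant TGACATCA, and TATAAA. Motifs other than TATAAA were searched on both strands, and all were chosen after the sequences had been read.
Fos, chr12:85473640-85473939, plus strand: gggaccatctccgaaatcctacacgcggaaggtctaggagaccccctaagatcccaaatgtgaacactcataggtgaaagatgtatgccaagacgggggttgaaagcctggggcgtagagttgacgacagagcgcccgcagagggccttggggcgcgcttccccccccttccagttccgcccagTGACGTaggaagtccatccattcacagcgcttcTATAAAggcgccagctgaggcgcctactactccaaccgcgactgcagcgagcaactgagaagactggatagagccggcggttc
Jun, chr4:95052173-95052472, minus strand: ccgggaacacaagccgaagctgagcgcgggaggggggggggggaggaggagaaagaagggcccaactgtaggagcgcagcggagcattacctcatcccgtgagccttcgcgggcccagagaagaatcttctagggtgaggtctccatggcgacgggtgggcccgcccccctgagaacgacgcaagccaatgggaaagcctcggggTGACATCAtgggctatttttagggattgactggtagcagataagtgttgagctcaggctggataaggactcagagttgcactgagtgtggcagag
Junb, chr8:84978699-84978998, minus strand: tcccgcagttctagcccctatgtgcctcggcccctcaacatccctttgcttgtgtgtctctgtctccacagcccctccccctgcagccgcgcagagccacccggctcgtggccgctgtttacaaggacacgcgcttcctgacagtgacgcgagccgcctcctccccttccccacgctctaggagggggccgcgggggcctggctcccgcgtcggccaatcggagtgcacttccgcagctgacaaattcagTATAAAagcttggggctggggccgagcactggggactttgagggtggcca
Egr2, chr10:67537619-67537918, plus strand: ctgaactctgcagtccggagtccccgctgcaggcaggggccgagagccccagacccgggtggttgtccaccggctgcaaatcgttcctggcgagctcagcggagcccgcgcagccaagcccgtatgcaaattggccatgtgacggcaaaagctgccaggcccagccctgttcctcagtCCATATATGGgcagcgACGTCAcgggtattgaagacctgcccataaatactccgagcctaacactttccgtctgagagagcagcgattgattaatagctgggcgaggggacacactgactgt
Atf3, chr1:191183284-191183583, minus strand: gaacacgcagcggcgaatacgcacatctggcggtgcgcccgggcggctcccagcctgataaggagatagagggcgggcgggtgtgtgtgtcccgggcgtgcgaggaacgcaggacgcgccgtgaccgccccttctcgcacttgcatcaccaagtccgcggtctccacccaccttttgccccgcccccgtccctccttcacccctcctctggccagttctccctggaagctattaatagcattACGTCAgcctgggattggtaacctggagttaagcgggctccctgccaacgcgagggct

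The half-site TGACGT stands at bases 185 to 190 of the Fos window and, on the other strand, at bases 195 to 200 of the Egr2 window and 243 to 248 of the Atf3 window. Among 27025 promoter windows of this length, 1 for each gene, 7.64% hold it. The CArG box of Egr2, at bases 179 to 188, is a motif found in 1.57% of windows, and the Jun variant site TGACATCA, at bases 206 to 213, in 3.76%. The classical AP-1 site TGANTCA, present in 7.93% of windows, and the Maf recognition element, which contains it and is present in 0.141%, were found in none of the windows of the 8 genes. Egr2 is the sole gene of the 8 with the antioxidant response element core TGACNNNGC, on bases 192 to 200, over the half-site (12.5% of windows), and Fosb and Fosl2 each hold the EGR site GCGNGGGCG (5.55%). The Egr2 window is 1 of 5 in the table for that gene. A match is a string of letters and not evidence of binding.

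Fos (ENSMUSG00000021250, chromosome 12, 85473890 to 85477273 on the plus strand, GRCm38), the most rapidly induced of the AP-1 genes, reached 24.96 CPM from 432 reads in cKO 2 and 40.9 CPM from 789 reads in cKO 5, against 156 CPM from 2719 reads in control 1 and 70.1 CPM from 1208 reads in control 6. Both cKO libraries lay below both controls, and control 1 stood well above control 6. The means were 32.9 ± 11.3 CPM in cKO and 113 ± 60.5 CPM in control (SD, n = 2 each), and the log2 fold change of cKO over control in edgeR was −1.78 ± 0.57 (SE).

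Fosb (ENSMUSG00000003545, chromosome 7, 19302696 to 19310051 on the minus strand), which encodes a FOS protein whose truncated form builds up with repeated stimulation in neurons, was scarce. Its values were 0.347 CPM (cKO 2) and 2.75 CPM (cKO 5), against 6.52 CPM (control 1) and 1.10 CPM (control 6). The groups overlapped, since cKO 5 exceeded control 6. The cKO 2 value rests on 6 reads, with an exact 95% binomial interval of 0.127 to 0.754 CPM, which covers counting error only, as do all intervals here. Within each genotype the higher library exceeded the lower by 7.92 times in cKO and 5.92 times in control, and the log2 fold change of −1.19 ± 1.45 (SE) was smaller than its error.

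Fosl2 (ENSMUSG00000029135, chromosome 5, 32135801 to 32157842 on the plus strand), a FOS family gene that is induced later and more persistently, was nearly level. It stood at 5.03 and 3.94 CPM in cKO libraries 2 and 5, against 4.35 and 3.08 CPM in controls 1 and 6. These overlap as CPM, with cKO 5 below control 1, although after division by the TMM factors both cKO values (4.38 and 4.28 CPM) exceeded both control values (4.21 and 3.35 CPM). The log2 fold change was 0.20 ± 0.615 (SE).

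Jun (ENSMUSG00000052684, chromosome 4, 95049034 to 95052222 on the minus strand), the main partner of FOS proteins, was the most abundant of the genes. The cKO libraries held 246 CPM from 4267 reads (cKO 2) and 202 CPM from 3890 reads (cKO 5), against 322 CPM from 5621 reads (control 1) and 309 CPM from 5325 reads (control 6). The groups did not overlap, and the cKO libraries were close after division by the TMM factors, at 215 CPM (cKO 2) and 219 CPM (cKO 5). Means of 224 ± 31.8 CPM in cKO and 315 ± 8.98 CPM in control (SD, n = 2 each) gave a log2 fold change of −0.58 ± 0.31 (SE). Jun shares 7.28% of its exon length with the antisense gene Junos, which had 6 reads in each cKO library, against 7 in control 1 and 17 in control 6.

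Junb (ENSMUSG00000052837, chromosome 8, 84974484 to 84978718 on the minus strand), whose protein is a weaker activator than JUN at many sites, stood at 62.6 CPM (cKO 2) and 75.6 CPM (cKO 5), against 139 CPM (control 1) and 116 CPM (control 6). The libraries of a genotype lay within 1.21 times of each other in cKO and 1.20 times in control, and the groups did not overlap. The log2 fold change was −0.93 ± 0.35 (SE). Junb shares 7.52% of its exon length with Prdx2 on the opposite strand, a peroxiredoxin gene with 16089 reads in cKO 2 and 5569 in cKO 5, against 7475 in control 1 and 5006 in control 6. No source used here states whether the libraries were stranded, so reads in the shared bases cannot be told apart.

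Jund (ENSMUSG00000071076, chromosome 8, 70698949 to 70700616 on the plus strand), usually the constitutively transcribed member of the JUN family, had 1 read in cKO 2 and 1 read in control 6. It was listed in no table for the other pairs. In GENCODE M21, 52.6% of its exon length overlaps Gm11175, an antisense gene on the opposite strand that is listed in none of the tables. Whether this overlap set the low count was not tested, and no level of Jund is drawn from these reads.

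Egr1 (ENSMUSG00000038418, chromosome 18, 34859823 to 34864984 on the plus strand), a common marker of ERK-driven transcription among the EGR genes, reached 25.2 CPM from 436 reads in cKO 2 and 39.1 CPM from 754 reads in cKO 5. Control 1 held 85.5 CPM from 1494 reads, and control 6 held 77.1 CPM from 1328 reads. Both cKO values lay well below the 2 control values, which were close together. The means were 32.1 ± 9.81 CPM in cKO and 81.3 ± 5.97 CPM in control (SD, n = 2 each), with a log2 fold change of −1.37 ± 0.43 (SE).

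Egr2 (ENSMUSG00000037868, chromosome 10, 67535475 to 67542188 on the plus strand), known for its part in myelinating Schwann cells and in hindbrain patterning, came to 4.27 CPM from 74 reads in cKO 2 and 14.04 CPM from 271 reads in cKO 5, against 16.1 CPM from 281 reads in control 1 and 20.8 CPM from 358 reads in control 6. The cKO values were the lowest, but cKO 5 stood close to control 1, and their exact 95% binomial intervals of 12.4 to 15.8 CPM and 14.3 to 18.1 CPM overlap. The log2 fold change was −1.01 ± 0.80 (SE), and −0.29 without cKO 2. Egr3, a related zinc finger gene on chromosome 14, was listed in no table; for genes left out of a table whose counts were known from the other tables, both libraries of the pair held at most 4 reads together.

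Atf3 (ENSMUSG00000026628, chromosome 1, 191170296 to 191218039 on the minus strand), a stress-induced member of the ATF family, stood at 26.9 CPM from 465 reads in cKO 2 and at 85.4 CPM from 1648 reads in cKO 5. The controls came to 84.6 CPM from 1478 reads (control 1) and 78.3 CPM from 1349 reads (control 6). Only cKO 2 was low, and cKO 5 was the highest of the 4 libraries, so the groups overlapped. The log2 fold change was −0.52 ± 0.71 (SE).

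**Figure D1:**
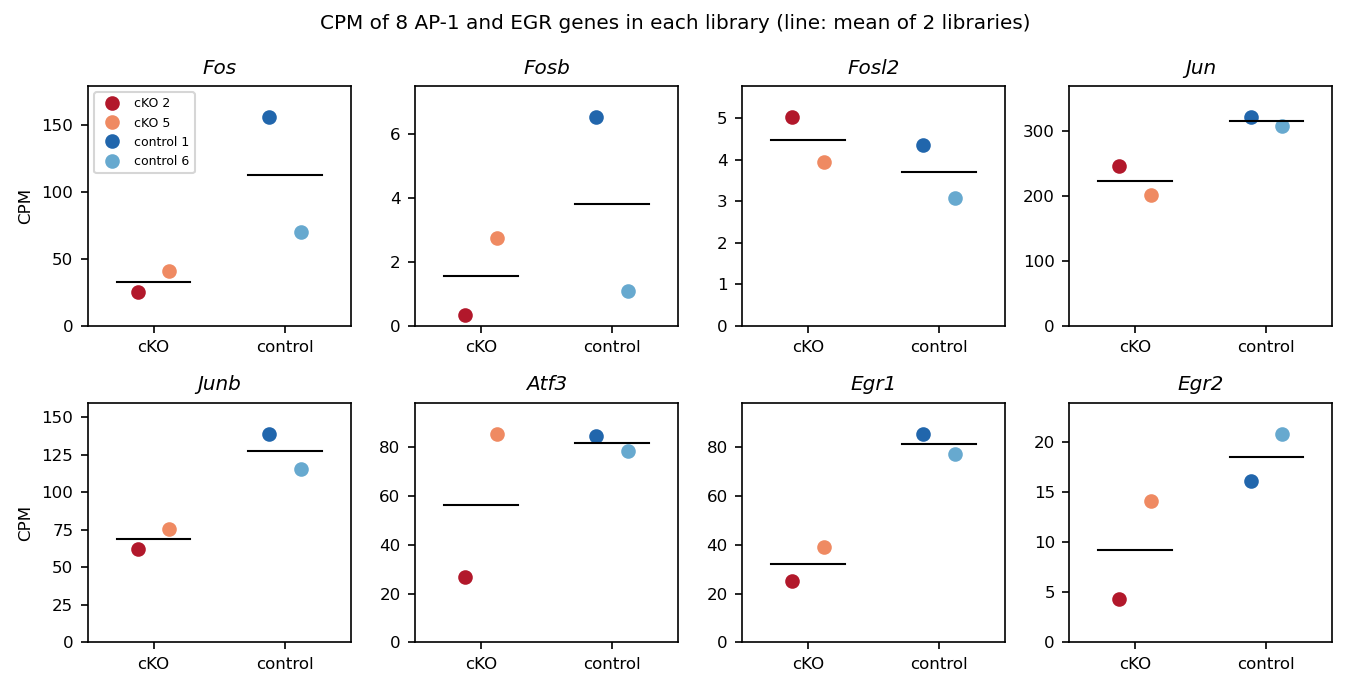
CPM (vertical axes, each from 0) of the 8 genes with counts in every library, with 1 point per library (cKO 2, cKO 5, control 1, control 6) and a line at the mean of the 2 libraries of a genotype. In the panels of Fos, Jun, Junb, Egr1 and Egr2 both cKO points lie below both control points, while Atf3 is low in cKO 2 alone and Fosb and Fosl2 overlap.

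Considered together, 5 of the 8 measured genes had both cKO libraries below both controls on TMM-normalized CPM (Fos, Jun, Junb, Egr1 and Egr2), against 7.64% of the 15951 genes tested. With the size factors of DESeq2 the count was 4, without Egr2. Since the genes were chosen with this contrast known, nothing is read from that difference in shares. The median log2 fold change of the 8 genes was −0.97, and that of all genes tested was 0.03. With edgeR's quasi-likelihood test and Benjamini-Hochberg adjustment at 0.05, no gene passed in either direction (0% of the 15951), with a smallest adjusted p of 0.9997. Before adjustment, 49 genes (0.307%) lay under 0.05 in edgeR, 74 in DESeq2 and 37 in limma-voom, and 0 did so after adjustment in each. Without cKO 2, Fos, Jun, Junb and Egr1 still had cKO 5 below both controls, where 33.0% of genes did so, and the median of the 8 genes was −0.42. Without cKO 5 the count was 7, all but Fosl2, where 35.9% of genes did so, and the median was −1.89.

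The authors' deposited tables set each cKO library against each control library without replicates, and each library serves in 2 of the 4 pairs. In the authors' deposited table of cKO 2 against control 1, 6 of the 8 genes listed were called lower by the rule that matched every call (p under 0.05 with a log2 fold change of at least 1 in size), where 11.6% of all genes listed were. The authors' deposited table of cKO 2 against control 6 called 5 of 9 lower (13.4% of genes), and that of cKO 5 against control 1 called 3 of 8 lower, Fos, Fosb and Egr1 (26.0% of genes). In the authors' deposited table of cKO 5 against control 6, 0 of 8 were called lower (11.4% of genes) and 1, Fosb, was called higher (9.23% of genes).

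The size of the difference varied with the pair for most genes. For Fos the authors' deposited tables gave log2 fold changes of −2.64 and −1.49 for cKO 2 against control 1 and control 6, and −1.93 and −0.78 for cKO 5 against the same controls. Egr1 spanned less, with −1.76 and −1.61 for cKO 2 and −1.13 and −0.98 for cKO 5 in the authors' deposited tables. Jun ranged from −0.67 to −0.33 and Junb from −1.15 to −0.62 in those deposited tables, negative in all 4 pairs. Fosb had the widest range in the authors' deposited tables, at −4.23 for cKO 2 against control 1 and 1.32 for cKO 5 against control 6. Atf3 was clearly negative in both pairs with cKO 2 (−1.65 and −1.54) and near 0 in both with cKO 5 (0.01 and 0.13), again from the authors' deposited tables.

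**Figure D2:**
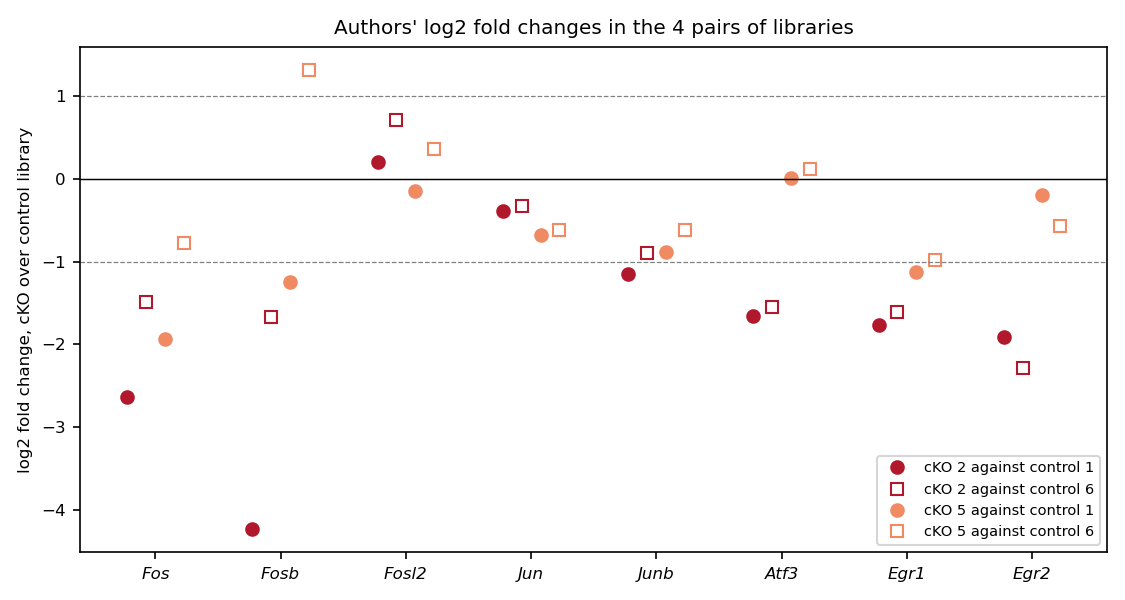
The authors' deposited log2 fold changes (vertical axis, cKO over control library) of the 8 genes in each of the 4 pairs of libraries, with red points for cKO 2, orange for cKO 5, filled circles against control 1 and open squares against control 6; dashed lines mark the authors' size threshold of 1. Fos, Jun, Junb, Egr1 and Egr2 are below 0 in all pairs, and Fosb runs from −4.23 to 1.32.

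Levels of different genes were compared per length, as RPKM (CPM per kilobase of the union of annotated exons), which understates genes with long, little used exons such as Fosl2 and Fosb. In the cKO libraries the order of the means was Jun (70.2 ± 9.98 RPKM), Junb (30.02 ± 3.999), Atf3 (26.05 ± 19.2), Fos (13.99 ± 4.78), Egr1 (7.16 ± 2.19), Egr2 (2.69 ± 2.03), Fosl2 (0.463 ± 0.0796) and Fosb (0.248 ± 0.272), as RPKM with the SD of 2 libraries. The controls had Jun (98.9 ± 2.82 RPKM), Junb (55.4 ± 7.14), Fos (48.0 ± 25.7), Atf3 (37.8 ± 2.07), Egr1 (18.1 ± 1.33), Egr2 (5.42 ± 0.976), Fosb (0.611 ± 0.614) and Fosl2 (0.384 ± 0.0931). Among neighbours in these orders, the means differed by less than the larger SD for Junb and Atf3 and for Atf3 and Fos in cKO, for Junb and Fos and for Fos and Atf3 in the controls, and for Fosb and Fosl2 in both genotypes. Jun led in every library.

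The make-up of the group differed between libraries as well as its sum. The summed level of the 8 genes was 135 RPKM (cKO 2) and 167 RPKM (cKO 5), against 292 RPKM (control 1) and 237 RPKM (control 6). Jun supplied 57.2% of that sum in cKO 2 and 37.9% in cKO 5, against 34.5% in control 1 and 40.9% in control 6. Junb held nearly the same share everywhere, between 19.7% and 21.2%. Per length, Fos had 0.137 times the level of Jun in cKO 2 and 0.275 times in cKO 5, against 0.656 times in control 1 and 0.308 times in control 6. This ratio, which does not depend on how libraries are scaled, was thus lower in both cKO libraries, but cKO 5 and control 6 were close. Atf3 made up 9.24% of the sum in cKO 2 and 23.8% in cKO 5, against 13.4% in control 1 and 15.3% in control 6.

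**Figure D3:**
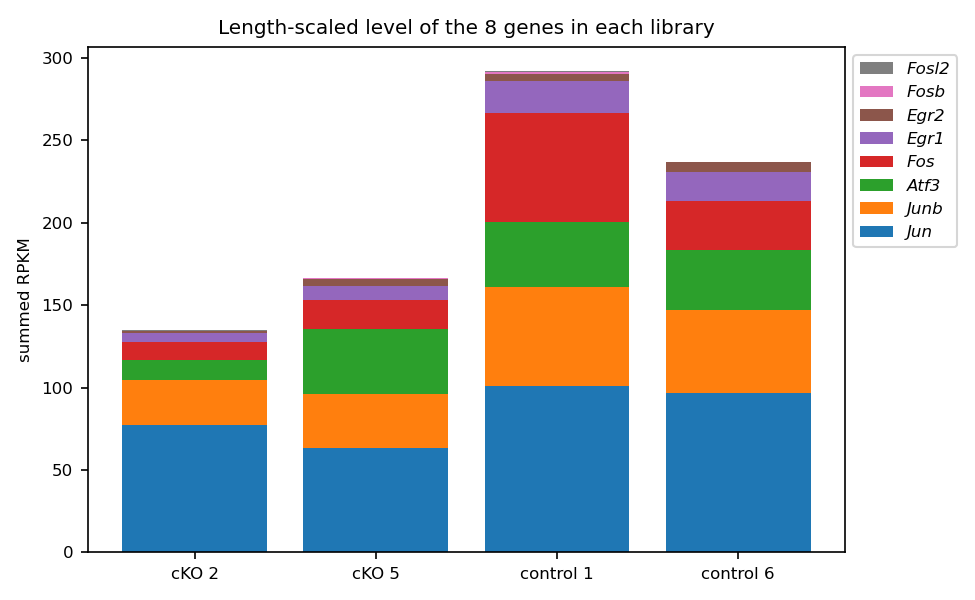
Stacked bars, starting at 0, of the RPKM of the 8 genes (colours) in each library, whose heights are the summed levels of 135, 167, 292 and 237 RPKM from left to right. Both cKO bars are shorter than both control bars, and Jun is the widest band in each.

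Markers of other cell types also differed between libraries, in orders of their own. Cortical neuron markers (10 of 10 tested) summed to 4213 CPM (cKO 2) and 336 CPM (cKO 5), against 1238 CPM (control 1) and 375 CPM (control 6). Endothelial markers (8 of 9 tested) came to 2346 and 314 CPM in the same cKO libraries, against 3027 and 566 CPM in the controls. Endothelial sums were thus highest in control 1 and next highest in cKO 2. The pericyte and fibroblast list (8 of 9 tested) summed to 3229 and 262 CPM in the cKO libraries, against 3560 and 693 CPM in the controls, with Lum in no table, Col1a1 at 0 reads in cKO 5 and Dcn at 0 reads in control 6. Border-associated macrophage markers (8 of 8) summed to 403 and 1815 CPM in the cKO libraries and to 943 and 1205 CPM in the controls, with Cd163 at 0 reads in control 6. In bulk libraries, fewer cells of a type and less RNA per cell cannot be told apart, and the part of these marker levels in the values of the AP-1 and EGR genes was not tested. The pair with the most similar cortical neuron sums was cKO 5 and control 6, which is 1 library of each genotype. Their endothelial, pericyte and border-associated macrophage sums differed, as given above. The authors' deposited table of this pair gave log2 fold changes of −0.78 for Fos, −0.98 for Egr1, −0.62 for Jun, −0.62 for Junb and −0.57 for Egr2. It gave 1.32 for Fosb, 0.36 for Fosl2 and 0.13 for Atf3. The part of cell content in these values was not tested either.

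**Figure D4:**
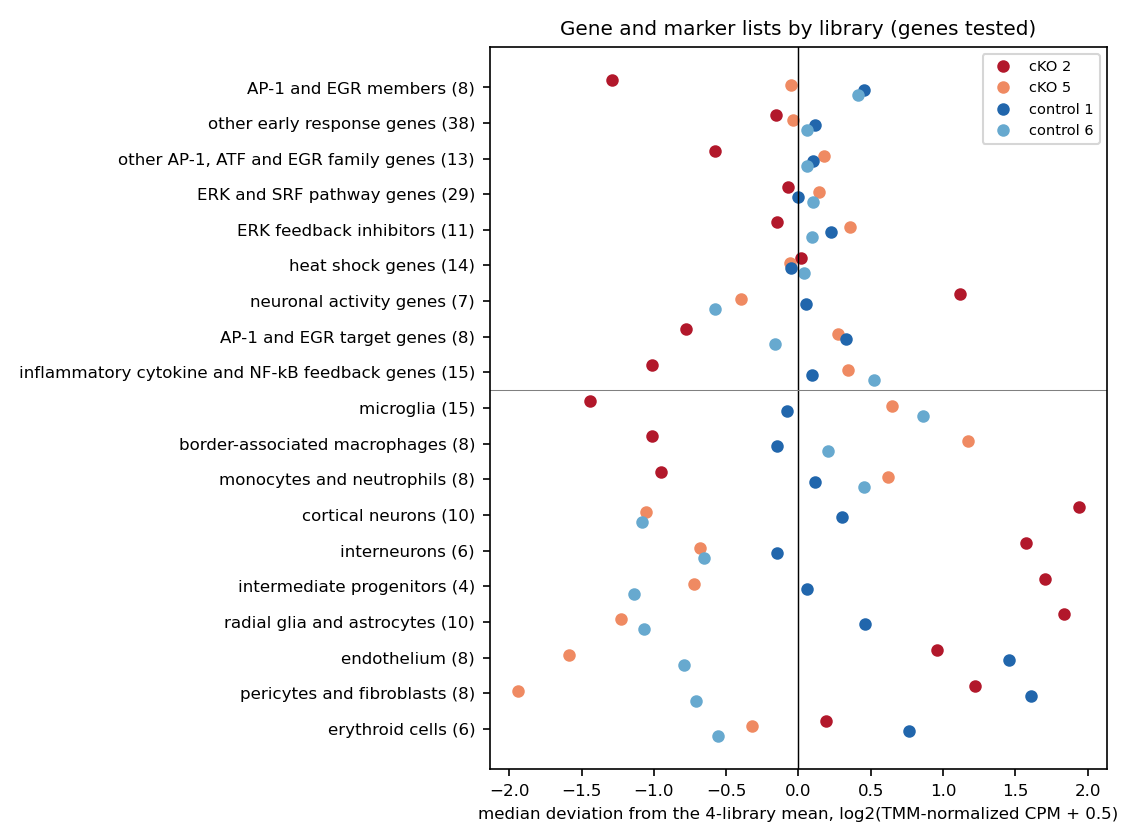
Median deviation of each gene list from the mean of the 4 libraries, on log2(TMM-normalized CPM + 0.5), with 1 point per library and the number of genes tested in brackets; pathway lists stand above the grey line and cell type markers below it. The AP-1 and EGR genes have medians of −1.29 in cKO 2 and −0.05 in cKO 5, against 0.46 in control 1 and 0.42 in control 6.

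Scaling changed how far the genotypes differed. When libraries were scaled on the microglial markers in place of all genes, the median over all genes tested was 1.07 in place of 0.03 on the log2 scale, and 1 of the 8 genes, Egr2, still had both cKO libraries below both controls (1.27% of all genes did). On that scale Fos had a log2 fold change of −1.20 ± 1.24 (SE) and Egr1 −0.62 ± 1.19, while Jun changed sign to 0.49 ± 1.04. Subtracting the median of all genes under the same scaling gave −2.27 for Fos, −1.69 for Egr1 and −0.57 for Jun. With TMM factors the same subtraction gave −1.81, −1.40 and −0.61. The subtraction returns the values to a scale set by all genes, so nothing is read from it about the microglial scale.

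**Figure D5:**
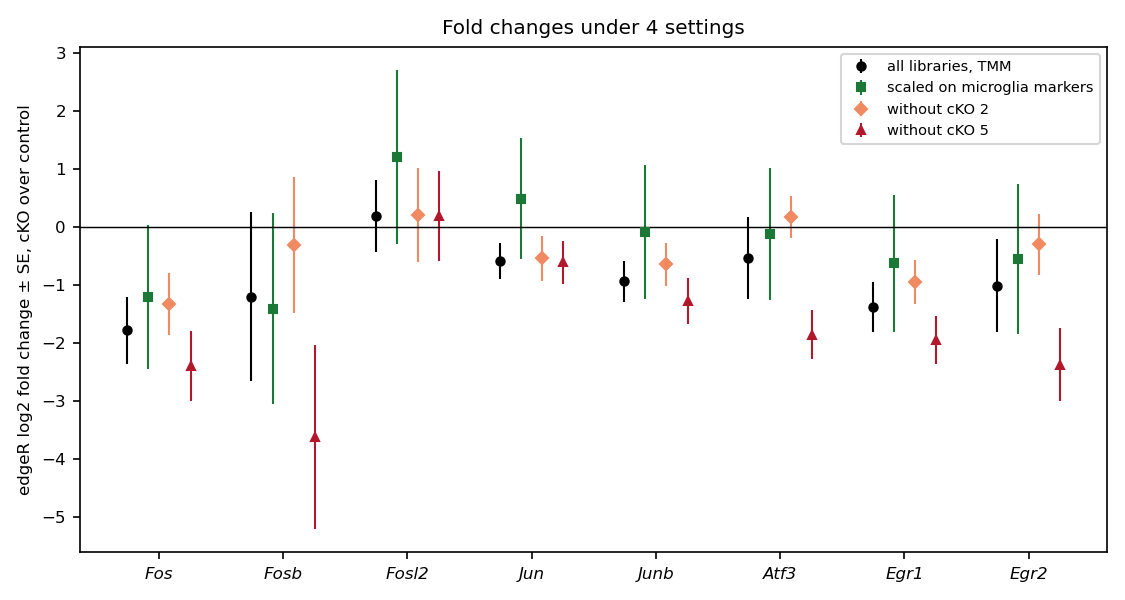
The edgeR log2 fold changes of cKO over control (vertical axis, bars are SE) for the 8 genes with all libraries and TMM factors, with scaling on microglial markers, without cKO 2 and without cKO 5. Fos and Egr1 are below 0 in all 4, Jun is above 0 (0.49) on the microglial scale, and the Atf3 point lies above 0 (0.18) without cKO 2.

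Other early response genes, a list of 40 that includes mRNA decay factors, KLF and NR4A factors and kinase phosphatases, were compared with the same fit. Of 38 tested, 0 passed the adjusted edgeR threshold in either direction, with negative log2 fold changes for 25 and positive for 13, and a median of −0.17 (0.85 when scaled on microglial markers). The mRNA decay gene Zfp36, which encodes tristetraprolin, came to 79.95 and 158 CPM in the cKO libraries, against 249 and 260 CPM in the controls (log2 fold change −1.12 ± 0.54 SE). Its relative Zfp36l1 stood at 49.3 and 58.1 CPM in the cKO libraries, against 72.3 and 89.2 CPM in the controls. Nr4a1, an orphan nuclear receptor gene induced in the same way, was scarce, with 1.85 and 1.71 CPM in the cKO libraries, against 3.49 and 3.95 CPM in the controls. These belong to the 7 of 38 genes with both cKO libraries below both controls, against 7.64% of all genes tested, while 2 of 38, Ier5 and Tob1, lay above both, against 8.33%. The relatives of Nr4a1 had positive log2 fold changes, 1.02 ± 1.46 (SE) for Nr4a2 and 1.08 ± 0.95 (SE) for Nr4a3. Klf6, a zinc finger gene and another of the 7, was nearly level at 206 and 216 CPM in the cKO libraries, against 247 and 218 CPM in the controls, and the antiproliferative gene Btg2 stood at 210.3 and 127 CPM in the cKO libraries, against 214 and 144 CPM in the controls.

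Upstream of these factors, the ERK and SRF pathway held genes of both signs. None of its 29 genes, all tested, passed the edgeR threshold in either direction, 13 had positive and 16 negative log2 fold changes, and the median was −0.03 (0.99 when scaled on microglial markers). Map2k1, which encodes the kinase MEK1, stood at 77.1 and 128 CPM in the cKO libraries, against 142 and 139.5 CPM in the controls. Elk3, a partner of SRF, had 81.6 and 126 CPM in the cKO libraries, against 139 and 138 CPM in the controls. For both genes cKO 2 was the low library. Nras, a RAS gene, had 497 and 541 CPM in the cKO libraries, against 524 and 590 CPM in the controls.

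Feedback inhibitors of ERK and EGR (11 of 11 tested) had 0 genes past the threshold in either direction, 2 positive and 9 negative log2 fold changes and a median of −0.30 (0.67 when scaled on microglial markers). Dusp6, an ERK phosphatase gene, reached 149 and 277 CPM in the cKO libraries, against 279 and 265 CPM in the controls. Dusp4, a nuclear phosphatase gene, stood at 108 CPM (cKO 2) and 5.54 CPM (cKO 5), against 35.3 CPM (control 1) and 8.18 CPM (control 6), the same order of libraries as for the neuronal markers. Nab1, a corepressor of EGR proteins, had 19.2 and 14.6 CPM in the cKO libraries, against 23.4 and 18.3 CPM in the controls. Without cKO 2 the median of this list was 0.14, so its sign rests on that library.

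Among 13 tested of 15 further AP-1, ATF and EGR family genes, 0 passed the threshold in either direction, 10 had negative values and the median was −0.17 (0.57 when scaled on microglial markers and 0.09 without cKO 2). Atf4, the effector of the integrated stress response, was level, with 184 and 193 CPM in the cKO libraries, against 195 and 171 CPM in the controls. Maf, a transcription factor gene of macrophages, was lowest in cKO 2, with 78.3 and 417 CPM in the cKO libraries, against 231 and 358 CPM in the controls. Egr4 was in no table. Of 12 genes with well known AP-1 or EGR sites, 8 were tested, 0 passed in either direction, and 4 were positive and 4 negative (median −0.05, and 0.52 when scaled on microglial markers). Plaur, the urokinase receptor gene, had 59.5 and 140 CPM in the cKO libraries, against 119 and 193 CPM in the controls. Mmp9, a matrix protease gene, had 143 and 29.3 CPM in the cKO libraries, against 209.7 and 38.6 CPM in the controls, with the low values in cKO 5 and control 6.

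The genes whose pattern was most like that of Egr1 were found by Euclidean distance between mean-centred log2(TMM-normalized CPM + 0.5) values over the 4 libraries, among genes with a mean of at least 5 CPM. Nearest outside the AP-1 and EGR group were Zfp36 (distance 0.35), Ppp1r3b (0.46), Olfr111 (0.48), Itpkb (0.48) and Furin (0.51). Ppp1r3b, which encodes a glycogen-targeting phosphatase subunit, had 22.4 and 42.3 CPM in the cKO libraries, against 58.9 and 68.9 CPM in the controls. For Fos the nearest genes outside the AP-1 and EGR group were Rassf8 (0.72), Nbeal2 (0.93), Gimap9 (0.97), C130089K02Rik (0.99) and Gm44860 (0.99). Egr1 itself lay at 0.78 from Fos, with 1 of 11185 genes outside the group closer, and Junb at 0.54 from Egr1, with 7 closer. Other members lay further off. For Fos, 9 genes were closer than Junb, 67 closer than Fosb, 105 closer than Egr2 and 125 closer than Atf3. A further 2 members were more distant, with 565 genes closer than Jun and 5687 closer than Fosl2. For Egr1, 79 genes were closer than Fos, 84 closer than Egr2, 284 closer than Atf3 and 683 closer than Jun. Fosb had 5787 genes closer to Egr1 than itself, and Fosl2 had 6341. With 4 libraries such distances describe these samples alone.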

How the data were processed

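RNA of 4 libraries (2 cKO, 2 control, grouped by sample title) was available in 4 deposited tables, each of 1 cKO and 1 control library. The submitters' processing notes name, without roles, HTSeq 0.6.0, TopHat2 2.0.12, Bowtie2 2.2.3 and the build mm9; the gene positions of all 9 listed members equal those of GENCODE M21 on GRCm38. Raw counts per Ensembl gene were deposited by the authors, and each library's counts matched exactly between its 2 tables. Values that the authors deposited as normalized are CPM, with 0.5 reads in place of 0. The deposited fold change is a ratio of 2 such values, and the deposited log2 value is its log2. The deposited p-values have no stated test.

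Counts were joined on the gene ID, leaving 18723 genes with a count in every library. Genotypes were compared with edgeR 4.0.16 in R 4.3.3 (quasi-likelihood test, TMM, filterByExpr with a minimum count of 10, 2 residual degrees of freedom, two-sided); tested on simulated data, the fit returned the fold changes on average but called none of them at the spread of these libraries. The SE is the log2 fold change divided by the root of the F statistic. With 2 libraries per genotype no exact permutation test can reach 0.05. Alternatives were DESeq2 1.42.0, limma-voom (limma 3.58.1), other scalings, no filter, and each library left out. The members, lists and naming rule (per list the 4 tested genes with the smallest p and the 4 most abundant, of which some are given; 5 nearest genes for Fos and Egr1) were chosen with earlier results of these data known. Ier5, Nr4a2, Nr4a3, Junos, Prdx2, Gm11175, Egr4, Col1a1 and Lum were named after their values were seen.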

Additional observations from a re-analysis of the deposited data

How the results depend on the processing

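No gene passed the adjusted threshold under any of the 10 alternatives run. Of 80 log2 fold changes of single members under alternatives, 77 kept their sign; the exceptions were Jun on the microglial scale (0.49), Fosb without control 1 (0.47) and Atf3 without cKO 2 (0.18). The count of members with both cKO libraries below both controls was 1 on the microglial scale and ran from 4 to 7 with a library left out, and the member median was −0.33 on that scale and ran from −1.89 to −0.42. The median of all genes was 1.07 on the microglial scale, 0.11 with library totals alone, −0.0279 in limma-voom and −0.0310 to 0.0874 with a library left out. On the microglial scale the medians of other early response genes (0.85) and ERK feedback inhibitors (0.67) turned positive, the second also without cKO 2 (range with a library left out −0.36 to 0.14). The cause of these reversals was not tested. No paired analysis was run, because the genotypes share no replicate number and the labels name no pairs. Whether the libraries were made in pairs is not known. Fosb had 6 to 114 reads, and its libraries differed within each genotype beyond their counting intervals.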

Other observations

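Heat shock genes, which encode chaperones, had log2 fold changes of both signs. Of 14 tested, 0 passed the edgeR threshold in either direction, 10 had positive and 4 negative log2 fold changes, and the median was 0.06 (1.11 when scaled on microglial markers and −0.10 without cKO 5). Hspa8, a constitutive chaperone gene, reached 1214 and 1257 CPM in the cKO libraries, against 1140 and 1147 CPM in the controls. Bag3, a co-chaperone gene, had 7.63 and 6.99 CPM in the cKO libraries, against 14.8 and 11.2 CPM in the controls, and was the 1 gene of 14 with both cKO libraries below both controls (7.64% of all genes tested), while 1 of 14, Hsp90aa1, had both above (8.33%).

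Inflammatory cytokine and NF-kB feedback genes had negative log2 fold changes for 15 of 15 tested, with 0 past the threshold and a median of −0.57 (−0.12 without cKO 2, −1.67 without cKO 5, and 0.04 when scaled on microglial markers). Microglial markers were likewise negative for 15 of 15, with a median of −0.41 and their lowest sum in cKO 2. The part of microglial content in the inflammatory gene values was not tested. Ccl3, a macrophage chemokine gene, reached 82.8 and 339 CPM in the cKO libraries, against 280 and 373 CPM in the controls, and Nfkbiz, an NF-kB regulator gene, reached 13.6 and 20.9 CPM in the cKO libraries, against 34.2 and 23.8 CPM in the controls. Genes induced by neuronal activity were positive for 6 of 7 tested (median 0.94, 0 past the threshold, 0.06 without cKO 2, 1.74 without control 1 and 2.05 when scaled on microglial markers). The cortical neuron markers were positive for 10 of 10, with a median of 1.22 and their highest sum in cKO 2, and their part in these values was not tested. Homer1, a synaptic scaffold gene, stood at 8.20 and 7.93 CPM in the cKO libraries, against 3.66 and 4.29 CPM in the controls.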
